A study of Mus musculus with 121 samples.

Results

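The livers compared here came from 6 wild-type (WT) mice fed the Alios diet and 8 WT mice fed a high-fat diet, 14 of the 121 labelled samples of the series. The members were taken from the labels alone, as the liver libraries with the diet Alios or HFD and the genotype WT. The series profiled liver and gonadal adipose tissue by RNA sequencing in C57BL/6 mice of 3 genotypes, WT, HET (heterozygous) and KO (knockout), at a locus labelled PEP, which was read as the prolidase gene Pepd. Each diet was given from 8 weeks of age for 18 weeks. WT livers on the Control diet (5 mice) and on standard chow (5 mice) served as the other diets of the same genotype, and HET livers on Alios (5 mice) and on HFD (11 mice) as other mice on the same pair of diets. The labels write the high-fat diet as HFD 45%, and give chow 10% of its calories from lipid. They give neither the composition of the Alios and Control diets nor the sex of the mice. In the wider field Alios is the name of a diet rich in trans fat with sugar in the drinking water.

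The diets cannot be told apart from the cohorts that ate them. Among WT livers, mouse names ran from PEP480 to PEP533 on Alios and from PEP519 to PEP528 on Control. HFD mice ran from PEP322 to PEP383 and from PEP586 to PEP590, and chow mice from PEP348 to PEP393 and from PEP565 to PEP568. No run of numbers holds both Alios and HFD mice, so no batch term could be fitted. Per the labels all libraries were pooled and read on 2 lanes. The labels do not say that a run is a batch. Every difference below is one between Alios mice and HFD mice with their cohorts included. Mice are called by their replicate number in the labels.

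Both diets are used to make mice obese with a fatty liver. A fatty liver takes up fatty acids from blood, makes new ones from sugar under the transcription factors SREBP1c and ChREBP, stores them in lipid droplets, and burns them in mitochondria under PPAR alpha. Insulin raises the synthesis genes after a meal and holds down a set of fasting genes, of which the binding protein Igfbp1 is a classical example.

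Depth overlapped between the diets, and hepatocyte markers were abundant in every liver. Total counts ran from 1919351 to 4588302 in Alios livers (median 2874142) and from 1399585 to 8854246 in HFD livers (median 2617568). Summed levels of 6 hepatocyte markers ran from 65235 to 107019 CPM (read counts scaled to library size) on Alios and from 86532 to 135879 CPM on HFD, so the tissue label held in all 14 libraries. Summed levels of 10 macrophage markers ran from 498.7 to 728.5 CPM on Alios and from 357.4 to 796.6 CPM on HFD. No gene tested in the 11 marker lists of cell types was called, but no muscle or T and NK cell marker, and only 1 pancreas, 1 adipocyte and 1 B cell marker, passed the expression filter. Muscle markers stood at 113 CPM in Alios mouse 2, against at most 0.819 CPM in the other Alios livers and at most 1.90 CPM in HFD livers, with Acta1 at 0 in all of them. Among the reference livers, muscle markers stood at 135 CPM in Control mouse 1, 12.9 in Control mouse 3 and 263 in chow mouse 3. Pancreas markers stood at 249 CPM in Control mouse 3. In whole tissue, fewer cells of a type and less RNA per cell cannot be told apart.

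In all, 227 of 10635 genes tested (2.13%) differed between Alios and HFD livers, 188 of them higher (1.77%) and 39 lower (0.367%) on Alios, at an adjusted p under 0.05 in edgeR's quasi-likelihood test. The largest rises were in Fabp5, Pnpla3 and Igfbp1, a fatty acid carrier, a lipid droplet lipase and a hormone binding protein, which stood 4.23-fold to 7.17-fold higher. Most changes were smaller: the median log2 fold change was 0.64 among the higher genes and -0.52 among the lower ones, beside -0.03 over all genes tested. The 6 Alios livers lay wholly above or wholly below the 8 HFD livers in 69 of the 227 called genes, and in 94 of all genes tested (0.884%), 75 above (0.705%) and 19 below (0.179%). DESeq2 called 407 genes.

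**Figure D1:**
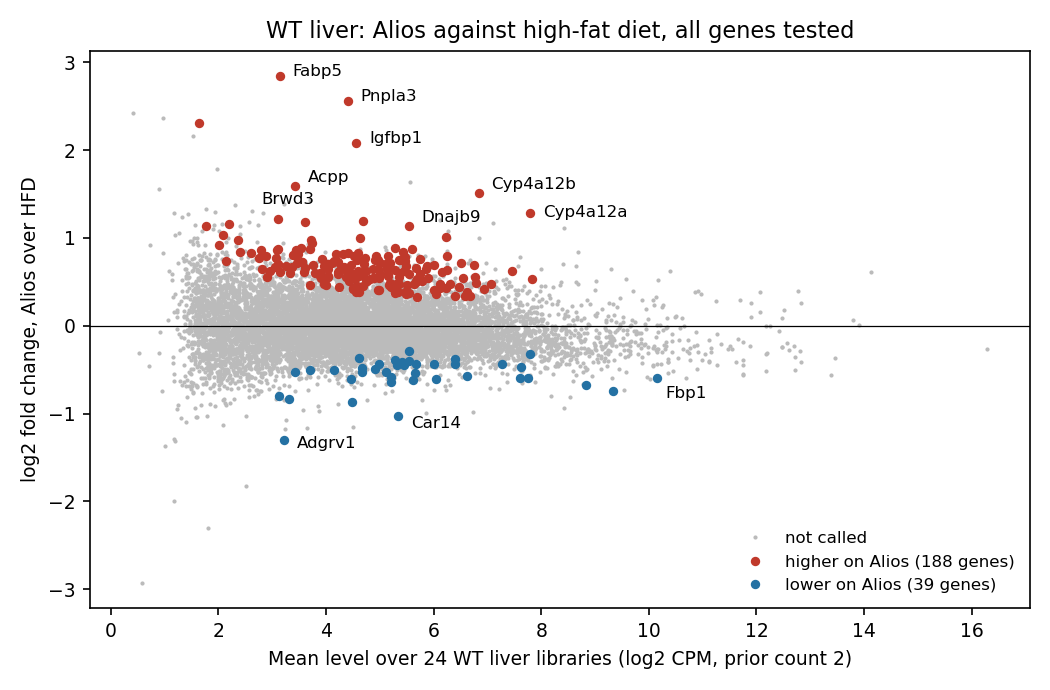
Log2 fold change of Alios over HFD in WT liver (y axis) against the mean level over the 24 WT liver libraries (x axis, log2 CPM), with each point a gene. The 188 genes higher on Alios (red) and the 39 lower (blue) lie mostly within 1 log2 unit of no change, and Fabp5, Pnpla3 and Igfbp1 stand above 2.

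The called genes also differed in base composition. Transcripts of genes higher on Alios had a median GC content of 40.6%, those of genes lower on Alios 55.0%, and those of all genes tested 49.4%. Of the 187 higher genes with a known transcript, 183 lay below the GC median of all genes, as did 2 of the 39 lower genes. Median transcript length was 4459 bases among the higher genes, 3858 among the lower and 3457 over all genes.

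The same tilt could be read in each library. The level of the 25% of genes lowest in GC, less that of the 25% highest in GC, averaged 0.24 ± 0.23 on Alios and -0.17 ± 0.33 on HFD (log2 deviation from the mean of WT livers, SD, n = 6 and 8, two-sided exact permutation p = 0.029). It was lowest in Alios mouse 4 at -0.16 and highest in HFD mouse 2 at 0.49, so that Alios mouse 4 lay within the HFD range and HFD mouse 2 above every Alios liver. Leaving out Alios mouse 4 gave over 500 called genes, and leaving out HFD mouse 2 gave 472. In the reference diets the same measure was 0.11 ± 0.06 on Control and -0.10 ± 0.32 on chow (n = 5 each, two-sided exact permutation p = 0.151). For Alios and HFD this measure comes from the same livers as the called genes, so its p is not independent of them. The like measure for transcript length gave a two-sided exact permutation p = 0.146 between Alios and HFD.

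With an offset for GC content and transcript length in each library, a choice made after the data were seen, 1 gene was called in place of 227. That gene was Crebzf, a leucine zipper regulator of transcription, at a log2 fold change of 0.69 ± 0.11 (SE, edgeR adjusted p = 0.00977). The offset removes any part of a diet difference that follows GC content or length. Of the 188 higher genes 185 kept their sign under it, with a median log2 fold change of 0.35, and all 39 lower genes kept theirs, with a median of -0.37. Of all 10635 genes tested 8286 kept their sign. Unadjusted p fell under 0.05 for 153 of the higher and 37 of the lower genes, and for 1348 genes in all. The called genes were picked in these same livers, so a kept sign or a small p here is no independent support.

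**Figure D2:**
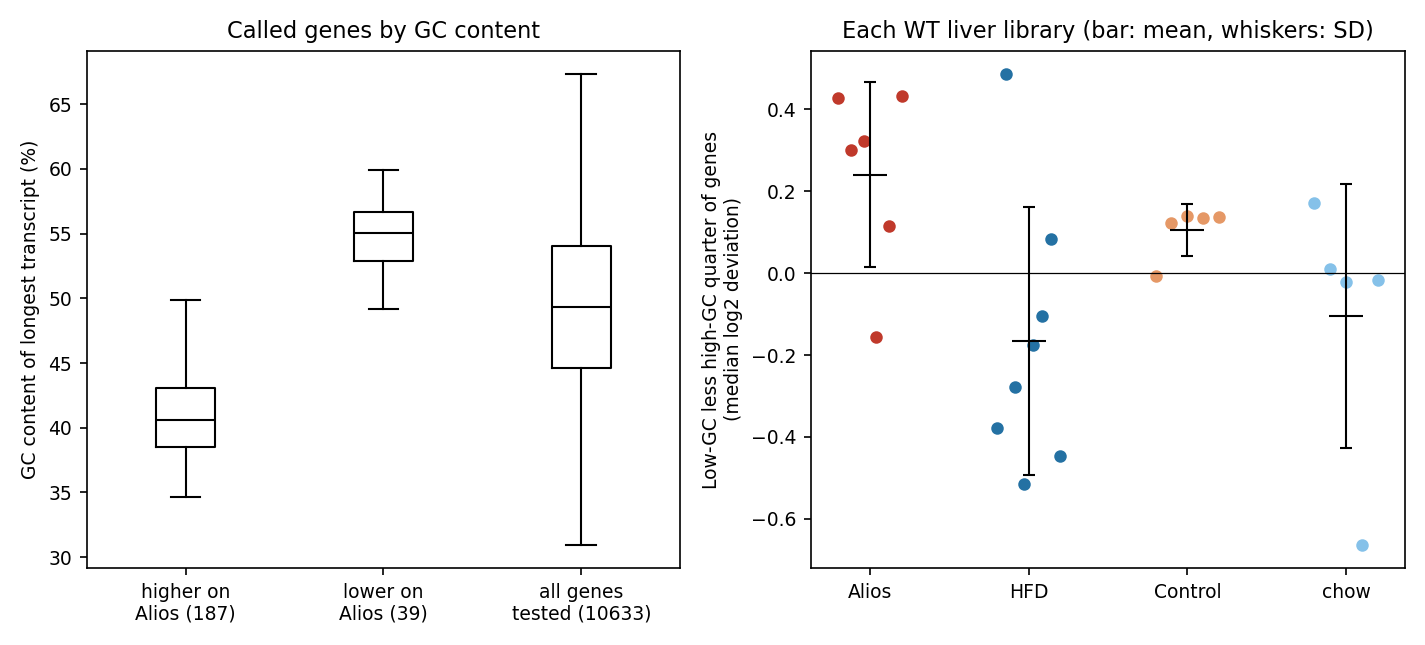
Left, GC content (%) of the longest transcript of genes higher on Alios, lower on Alios and of all genes tested (boxes: quartiles, line: median, whiskers: range without outlying genes). Right, the low-GC less high-GC measure of each WT liver library by diet (bar: mean, whiskers: SD), with 5 of 6 Alios libraries and 2 of 8 HFD libraries above 0.

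The count also turned on single livers. It was 98, 115, 133, 99 and 89 without Alios mouse 1, 2, 3, 5 and 6, and 115, 90, 73, 111 and 106 without HFD mouse 1, 3, 4, 5 and 8, beside the counts given above for Alios mouse 4 and HFD mouse 2. Against only the 4 HFD mice numbered below 500 the count was 94, of which 73 were among the 227, and against only the 4 numbered above 500 it was 14, of which 10 were. Between those runs of HFD mice edgeR called 0 of 10750 genes (0%), with 651 at an unadjusted p under 0.05, and DESeq2 also called 0. With 4 mice in each run, 0 calls do not show that the runs are alike. Of the 227 genes 145 (63.9%) had the same sign in HFD mice above 500 over those below as in Alios over HFD, beside 53.9% of all genes.

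Fabp5 (ENSMUSG00000027533, chromosome 3 from 10012548 to 10016607, plus strand, GRCm38) encodes a fatty acid binding protein of macrophages and fat-laden cells. Fabp5 stood at 4.79 CPM in the lowest Alios liver, 19.4 at the median and 83.5 in the highest, against 1.42, 3.77 and 6.98 CPM in HFD livers. The 2 highest Alios livers were mice 4 and 6, and mouse 2 alone overlapped the HFD range. Fabp5 was 7.17-fold higher on Alios (log2 2.84 ± 0.56, edgeR adjusted p = 0.0137, 5 of 6 above every HFD liver), and its log2 fold change was 2.86 with the offset for GC and length.

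Pnpla3 (ENSMUSG00000041653, chromosome 15 from 84167837 to 84187236, plus strand) encodes a lipase of lipid droplets, acting on triglyceride and retinyl esters, and is a known target of SREBP1c. Pnpla3 ran from 18.2 to 175 CPM on Alios with a median of 71.1, against 1.499 to 26.9 CPM on HFD with a median of 10.6. As with Fabp5, Alios mice 4 and 6 were highest and mouse 2 lowest, and mouse 2 alone fell within the HFD range. Its fold change was 5.87 (log2 2.55 ± 0.58, edgeR adjusted p = 0.0231), and with the offset log2 2.75. The call was lost without Alios mouse 6 or without HFD mouse 3.

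Igfbp1 (ENSMUSG00000020429, chromosome 11 from 7197782 to 7202546, plus strand) encodes a hepatocyte protein that binds insulin-like growth factors in plasma. Its level was 10.6 CPM in the lowest Alios liver, 51.1 at the median and 142 in the highest, against 8.24, 13.9 and 24.4 CPM on HFD. Here Alios mice 1, 2 and 5 stood above every HFD liver and mice 3, 4 and 6 within their range, so the mice highest in Igfbp1 were not those highest in Fabp5 and Pnpla3. Igfbp1 was 4.23-fold higher on Alios (log2 2.08 ± 0.52, edgeR adjusted p = 0.0374, with the offset log2 2.20), and the call was lost in 8 of the 14 fits that left out 1 liver.

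Dnajb9 (ENSMUSG00000014905, chromosome 12 from 44205559 to 44210326, minus strand) encodes a chaperone partner of BiP in the endoplasmic reticulum and is a target of the unfolded protein response. Dnajb9 stood at 32.0, 68.5 and 125 CPM in the lowest, median and highest Alios livers, against 25.7, 34.8 and 46.1 CPM in HFD livers. Alios mice 1, 2 and 5 were again the highest, and mouse 4 alone fell within the HFD range. The gene was 2.20-fold higher on Alios (log2 1.14 ± 0.28, edgeR adjusted p = 0.0331, with the offset log2 0.96), and 8 of the 14 fits without 1 liver lost the call.

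The promoters of Igfbp1 and Dnajb9 are shown because their known regulation, by insulin and by stress of the endoplasmic reticulum, is read from upstream sequence. Each is 250 bases before to 50 bases after the start given by RefSeq on GRCm38.p6, 5' to 3' on the strand of the gene, at chr11:7197537-7197836 on the plus strand for Igfbp1 and chr12:44210019-44210318 on the minus strand for Dnajb9. Capitals mark the core of the insulin response element (CAAAACAA) in Igfbp1 and an E-box (CACGTG) in Dnajb9. The E-box is not the element of endoplasmic reticulum stress, and no such element was searched for.

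Igfbp1: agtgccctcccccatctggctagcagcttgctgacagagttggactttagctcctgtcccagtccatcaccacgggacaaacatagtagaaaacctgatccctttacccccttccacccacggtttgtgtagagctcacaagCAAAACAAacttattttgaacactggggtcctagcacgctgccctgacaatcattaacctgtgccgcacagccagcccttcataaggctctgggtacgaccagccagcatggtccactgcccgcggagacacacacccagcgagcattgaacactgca

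Dnajb9: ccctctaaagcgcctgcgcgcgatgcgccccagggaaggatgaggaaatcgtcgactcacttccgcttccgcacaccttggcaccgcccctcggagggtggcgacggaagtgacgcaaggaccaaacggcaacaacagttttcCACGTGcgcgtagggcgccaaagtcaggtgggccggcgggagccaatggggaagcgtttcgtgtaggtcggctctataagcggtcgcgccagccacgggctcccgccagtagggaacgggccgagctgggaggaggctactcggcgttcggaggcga

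The insulin response element core, searched on both strands, began at base 143 of the Igfbp1 window and was found in 2.51% of all 32851 promoter windows of this length. Of the 31 genes named here 26 had a window, and Igfbp1 was the one with this match. The E-box began at base 144 of the Dnajb9 window and was found in 7.15% of all windows and in 6 of the 26, Pepd, Dnajb9, Lnpk, Slc13a3, Wdr81 and Orc4. The sterol response element (TCACNCCAC), present in 1.24% of all windows, was in none of the 26. The percentages count windows, whereas the 26 are genes, each counted if any of its windows matched, so these shares are not like for like. A match is a stretch of letters and was not tested as a binding site.

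Cyp4a12a (ENSMUSG00000066071, chromosome 4 from 115299046 to 115332815, plus strand) and its near-identical neighbour Cyp4a12b (ENSMUSG00000078597, chromosome 4 from 115411624 to 115439034, plus strand) encode fatty acid hydroxylases that in mice are more abundant in males. Reads shared by this pair could have been split or lost in the authors' counting, so neither level is certain. Cyp4a12a ran from 102 to 734 CPM on Alios with a median of 336, against 86.9 to 218 CPM on HFD with a median of 136. Alios mouse 4 was the highest, and mice 1 and 2 lay within the HFD range. Cyp4a12a was 2.43-fold higher (log2 1.28 ± 0.33, edgeR adjusted p = 0.0432) and Cyp4a12b 2.85-fold higher (log2 1.51 ± 0.37, edgeR adjusted p = 0.0361), and 9 and 7 of the 14 fits without 1 liver lost these calls.

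**Figure D3:**
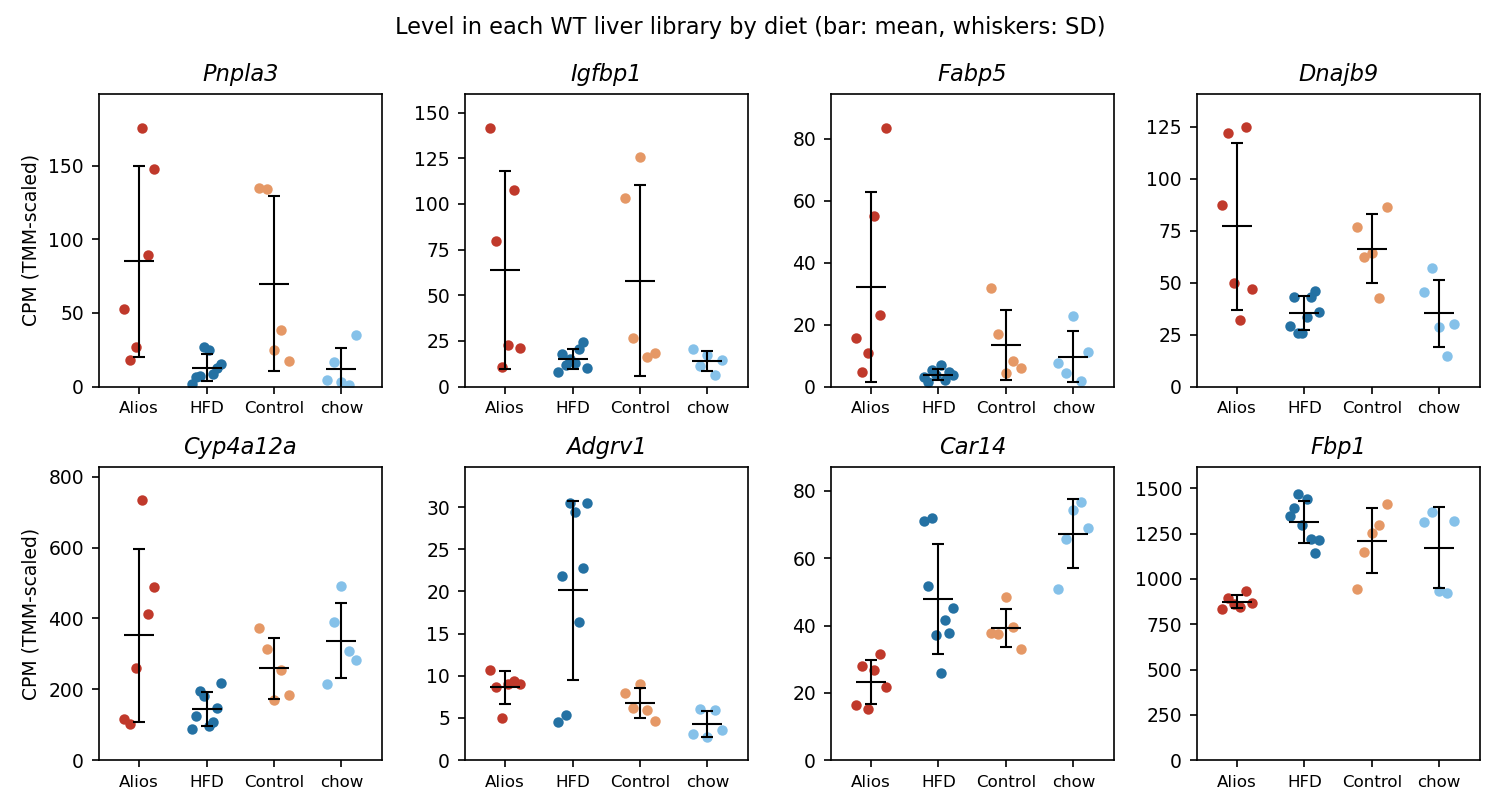
Level (CPM) of 8 named genes in each WT liver library on Alios, HFD, Control and chow, with the mean (bar) and SD (whiskers). The Alios points of Pnpla3, Igfbp1, Fabp5, Dnajb9 and Cyp4a12a spread widely and reach above the HFD points, Fbp1 has every Alios point below every HFD point, and 2 of 8 HFD livers are low in Adgrv1.

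Other large rises were spread over several roles. Acpp, an acid phosphatase, was 3.01-fold higher (log2 1.59 ± 0.43, edgeR adjusted p = 0.0485) at 18.5 ± 15.0 CPM on Alios and 6.00 ± 2.59 CPM on HFD (SD, n = 6 and 8). Alios mouse 6 was the highest at 47.5 CPM, and 10 of the 14 fits without 1 liver lost the call. Tmed5, a cargo receptor between endoplasmic reticulum and Golgi, ran from 100 to 127 CPM on Alios and from 45.0 to 76.4 CPM on HFD with no overlap (log2 1.00 ± 0.21, edgeR adjusted p = 0.0144). Lnpk, which shapes the tubules of the endoplasmic reticulum, stood at 5.64 ± 1.43 CPM on Alios and 2.88 ± 1.23 CPM on HFD (log2 1.04). The membrane protein Lysmd3 (log2 1.19), the bromodomain protein Brwd3 (log2 1.22) and the ubiquitin ligase Dzip3 (log2 1.13, call lost in 7 of the 14 fits without 1 liver) also rose. With the offset for GC and length, Tmed5, Lnpk, Lysmd3, Brwd3 and Dzip3 stood at log2 0.60 to 0.83, whereas Fabp5, Igfbp1 and Pnpla3 stood at 2.20 or more.

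The smallest p-values belonged to moderate but very even rises in nuclear and RNA-binding proteins. Hnrnph1, a splicing regulator, had 120 CPM in the lowest Alios liver, 131 at the median and 149 in the highest, against 78.6, 90.2 and 98.3 CPM on HFD, without overlap. Its fold change was 1.47 (log2 0.55 ± 0.08, edgeR adjusted p = 0.00248). The zinc finger factor Zfx was 1.64-fold higher, the replication origin protein Orc4 1.56-fold, Crebzf 1.54-fold, and Ythdf3, a reader of methylated adenosine in RNA, 1.73-fold. All 5 separated the diets completely and kept their call in each of the 14 fits that left out 1 liver. With the offset Hnrnph1 stood at log2 0.17 and Orc4 to 0.27, Zfx stood at 0.36 and Ythdf3 at 0.44, while Crebzf, whose transcript has a GC content of 50.7%, stood at 0.69.

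Among the 39 genes lower on Alios, fructose bisphosphatase, Fbp1 (ENSMUSG00000069805, chromosome 13 from 62864753 to 62888282, minus strand), the enzyme that commits carbon to glucose in gluconeogenesis, separated the diets without overlap. Fbp1 stood at 836, 865 and 933 CPM in the lowest, median and highest Alios livers, against 1141, 1321 and 1467 CPM in HFD livers. The Alios livers lay close together and below every HFD liver. The fall was 1.51-fold (log2 -0.59 ± 0.11, edgeR adjusted p = 0.0131) and held in each of the 14 fits without 1 liver, and with the offset log2 was -0.47.

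Adgrv1, a very large adhesion receptor, had the lowest log2 fold change among the named genes. Adgrv1 stood at 4.99, 9.01 and 10.7 CPM in the lowest, median and highest Alios livers, against 4.50, 22.3 and 30.5 CPM in HFD livers. HFD mice 1 and 3 were as low as the Alios mice, and the other 6 HFD mice stood above all of them. The fold was 2.47 lower (log2 -1.30 ± 0.32, edgeR adjusted p = 0.0359, with the offset -1.52), and 8 of the 14 fits without 1 liver lost the call. Car14, a membrane carbonic anhydrase, followed at 15.2 to 31.5 CPM on Alios and 25.9 to 72.1 CPM on HFD (log2 -1.02 ± 0.20, edgeR adjusted p = 0.0137, lower than the HFD mean in 6 of 6).

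Of the other named falls, Pepd is given below and the remaining 10 lay between log2 -0.87 and -0.60. They were in enzymes and transporters of small molecules, the dicarboxylate carrier Slc13a3 (log2 -0.87), the mitochondrial sarcosine dehydrogenase Sardh (-0.74), the aminoacylase Acy3 (-0.61) and the microsomal epoxide hydrolase Ephx1 (-0.68). The cell junction protein Jup (-0.64), the cortical anchor protein Phldb1 (-0.84), the signalling protein Plekhg5 (-0.80) and the endosomal protein Wdr81 (-0.62) also fell. So did the DNA repair protein Mgmt (-0.61) and Rarres2, the precursor of the adipokine chemerin (-0.60). Sardh was the most abundant, at 454 ± 123 CPM on Alios and 760 ± 255 CPM on HFD. All 10 overlapped between the diets in at least 1 liver, and with the offset their log2 fold changes lay between -0.70 and -0.41. Each of the 10 lost its call in 5 to 11 of the 14 fits without 1 liver.

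Pepd, the gene targeted in the series, was present in full in these WT mice. It encodes prolidase, which splits dipeptides ending in proline. Pepd (ENSMUSG00000063931, chromosome 7 from 34912379 to 35044708, plus strand) stood at 31.1, 43.7 and 45.6 CPM in the lowest, median and highest Alios livers, against 44.1, 53.3 and 64.5 CPM in HFD livers. Alios mice 1, 3 and 4 lay within the HFD range, and mice 2, 5 and 6 below it. It was 1.33-fold lower on Alios (log2 -0.41 ± 0.10, edgeR adjusted p = 0.042), and 10 of the 14 fits without 1 liver lost the call. With the offset log2 was -0.26 (edgeR adjusted p = 0.179). Pepd averaged 41.3 CPM on Alios, 43.0 CPM on Control and 44.0 CPM on chow, and was highest on HFD at 54.6 CPM. None of the other 7 tested members of its list of related peptidases passed the test.

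Pathway lists showed few called members, so each is described by its count and median beside the median of -0.03 over all genes tested. Of all genes tested 46.1% had a positive log2 fold change. Of 22 tested genes of fatty acid and triglyceride synthesis, 1 rose, Pnpla3, 18 had a positive log2 fold change and the median was 0.35. Scd2, a fatty acid desaturase, averaged 24.4 CPM on Alios and 12.2 CPM on HFD (log2 0.92, edgeR adjusted p = 0.11). Of 24 genes of cholesterol synthesis and SREBP2 targets none passed, with 19 positive and a median of 0.33. Sqle, an early committed enzyme of sterol synthesis, averaged 126 CPM on Alios and 54.3 CPM on HFD (log2 1.20, edgeR adjusted p = 0.132). These and the uncalled genes named below were chosen after their values were seen. In Control over chow, the reference diets, the median was 0.32 for fat synthesis and -0.17 for cholesterol synthesis.

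No tested member of the lists for burning and for storing fat was called by edgeR. An unadjusted edgeR p under 0.05 was found for 7 of 26 and 5 of 16, beside 2148 of all 10635 genes tested. Of 26 genes of fatty acid oxidation, ketogenesis and PPAR alpha response, 6 were positive and the median was -0.20, with none called. Hadha, a subunit of the mitochondrial trifunctional protein, averaged 375 CPM on Alios and 468 CPM on HFD without overlap between the diets (edgeR adjusted p = 0.0676). Of 16 lipid droplet genes, 3 were positive and the median was -0.29, with none called. Cidea, a droplet fusion protein, averaged 7.98 CPM on Alios and 27.3 CPM on HFD (log2 -1.83, edgeR adjusted p = 0.243). With the offset the medians were 0.28 for fat synthesis, 0.36 for cholesterol synthesis, -0.19 for oxidation and -0.17 for lipid droplets.

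In sugar metabolism, Fbp1 was the 1 gene called of 12 in gluconeogenesis and glycogen (median -0.05), and none of 16 was called in sugar uptake, glycolysis and fructose breakdown (median -0.27). The glycolytic enzyme Eno1 averaged 84.7 CPM on Alios and 127 CPM on HFD (log2 -0.59, edgeR adjusted p = 0.0502). Igfbp1 was the 1 of 15 liver hormones and binding proteins (median -0.22), and Dnajb9 the 1 of 19 genes of the unfolded protein and integrated stress response, of which 17 were positive (median 0.29, with the offset 0.35). Cyp4a12a and Cyp4a12b were the 2 of 17 sex-biased and growth hormone responsive genes, whose median was 0.04 and, with the offset, -0.12.

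Detoxification and bile acid lists had medians below 0. Ephx1 was the 1 called of 16 xenobiotic receptors and conjugation enzymes (median -0.21). None was called of 18 xenobiotic cytochromes P450 (-0.26), 18 glutathione and NRF2 targets (-0.18), 13 bile acid synthesis genes (-0.18) and 12 bile acid and anion transporters (-0.05). None was called either of 23 lipoprotein and cholesterol export genes (-0.20), 19 of amino acid breakdown and the urea cycle (-0.24), 19 of oxidative phosphorylation (-0.15) and 14 of insulin signalling (-0.10). Pnpla3 was also the 1 of 14 genes of retinoid metabolism (median 0.10).

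Among immune and stromal lists, Fabp5 was the 1 called of 14 genes of lipid-associated macrophages (median 0.11). Of 21 macrophage markers none was called and 17 were positive (median 0.23, with the offset 0.37 and 20 positive). None was called of 8 cytokines and chemokines (0.47), 24 interferon-stimulated genes (0.11), 7 class II antigen presentation genes (0.10) and 22 acute phase proteins (0.10). Il1b, the cytokine interleukin 1 beta, averaged 5.32 CPM on Alios and 2.34 CPM on HFD (edgeR adjusted p = 0.109). Collagen and matrix genes (27 tested, median -0.23), stellate cell markers (13, -0.25), matrix proteases (7, -0.27) and cell cycle genes (12, -0.32) also had no call. Of 17 circadian clock genes none was called, and their median was 0.06 and, with the offset, -0.08. Of lymphocyte and neutrophil lists only 3 B and plasma cell genes (median -0.06) and 2 neutrophil genes (0.23) passed the expression filter, none of them called, and no T and NK cell gene did.

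**Figure D4:**
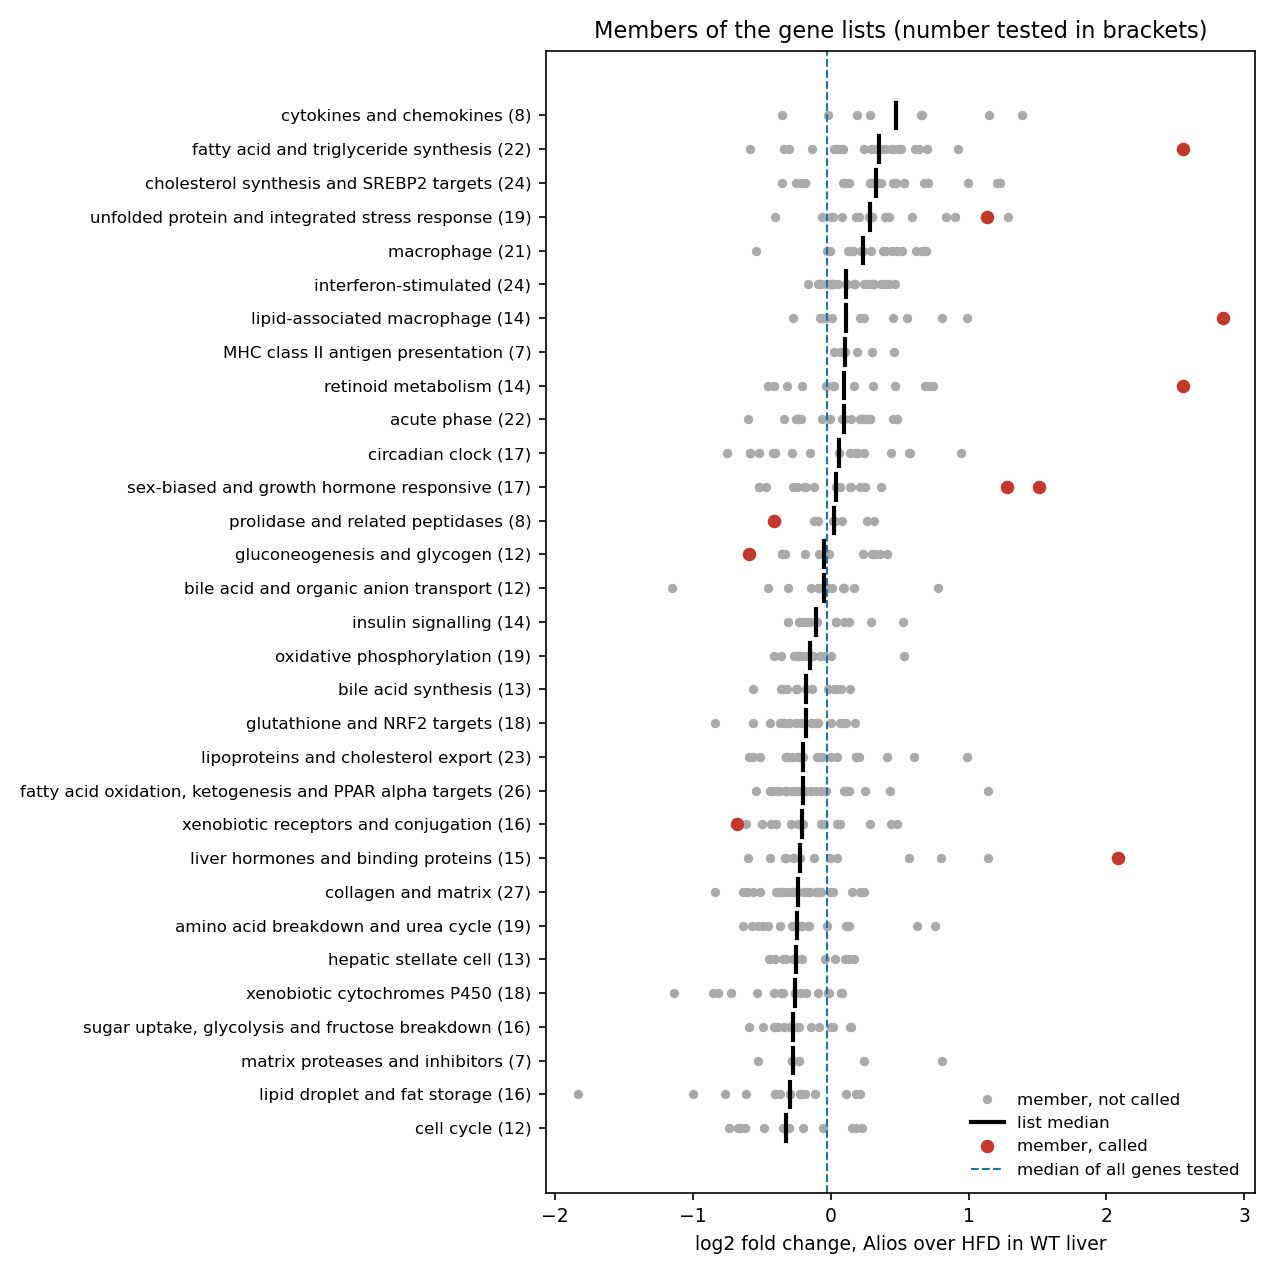
Log2 fold change of Alios over HFD in WT liver for the members of each list with at least 5 genes tested (x axis), ordered by the list median (black bar). Called members are red, others grey, and the dashed line is the median of all genes tested at -0.03. The medians run from -0.32 for cell cycle genes to 0.47 for cytokines and chemokines.

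HET mice on the same diets gave another reading, but their runs of mouse numbers overlapped those of WT. They ran from PEP488 to PEP520 on Alios, and from PEP313 to PEP400 and PEP556 to PEP591 on HFD. Diet and cohort cannot be told apart in HET either, so agreement between HET and WT does not separate them. In HET liver 5% of 11144 genes differed between Alios and HFD, 302 higher (2.71%) and 255 lower (2.29%) on Alios, in a fit that shared no library with the WT comparison. In 1 library labelled HET on HFD, replicate 8, Pepd stood at 1.28 CPM, the level of KO livers (0.872 to 2.93 CPM on HFD), against 15.7 CPM or more in the other HFD livers labelled HET. Without that library 502 genes were called. Leaving out Alios HET replicate 3 gave 219, Alios HET replicate 5 gave 278 and HFD HET replicate 6 gave 363. With the offset for GC and length 311 genes were called.

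Of the 227 genes called in WT, 66 were also called in HET, all in the same direction, which is 29.1% of the WT calls and 11.8% of the HET calls. Without the library with little Pepd it was 63. In HET 223 of the 227 had the same sign (98.2%), beside 75.1% of all genes, and 199 did with the offset. The medians were smaller in HET, 0.32 for the genes higher in WT and -0.32 for those lower. The genes were picked by their WT values, and genes so picked tend to show smaller values in other mice. With the offset 27 of the 66 were called in HET. The difference between the diet effects of HET and WT was tested for each gene, and edgeR called 0 of 10892 genes (0%), with 395 at an unadjusted p under 0.05. DESeq2 also called 0, and without Alios HET replicate 1 edgeR called 1.

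The fat handling and hormone genes were called in HET as well. Pnpla3 ran from 42.2 to 129 CPM in HET livers on Alios and from 1.64 to 19.2 CPM in those on HFD, without overlap (log2 3.43 ± 0.53, edgeR adjusted p = 0.00136). Fabp5 was log2 1.90 ± 0.39 higher (edgeR adjusted p = 0.00775), Igfbp1 1.66 ± 0.41 (0.0206), Acpp 1.40 ± 0.26 (0.00375), Cyp4a12a 1.54 ± 0.34 (0.0102) and Cyp4a12b 1.57 ± 0.38 (0.0184). Adgrv1 was lower by a log2 of -1.37 ± 0.35 (edgeR adjusted p = 0.0222) and Car14 by -0.71 ± 0.16 (0.0115). All of these stayed called in HET both without the library with little Pepd and with the offset. Under other settings some calls were lost. Fabp5 and Igfbp1 lost theirs with all 12 liver groups fitted, and Fabp5, Adgrv1 and the Cyp4a12 pair with the replicate number as a block. Igfbp1 and Adgrv1 lost theirs without Alios HET replicate 1 or 3, and the Cyp4a12 pair without Alios HET replicate 5.

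The genes with the smallest p-values in WT had smaller fold changes in HET. Having been picked by their WT values, they tend to show smaller ones in other mice whatever the genotype. Hnrnph1 stood at log2 0.33 (edgeR adjusted p = 0.0432), Zfx at 0.19 (0.338), Orc4 at 0.28 (0.189), Crebzf at 0.26 (0.383) and Ythdf3 at 0.27 (0.229). Fbp1 averaged 955 CPM on Alios and 1170.4 CPM on HFD in HET livers (log2 -0.29, edgeR adjusted p = 0.065). Pepd, of which HET mice carry 1 intact copy, showed a log2 fold change of -0.01 in HET (edgeR adjusted p = 0.995), or -0.10 without the library with little Pepd. None of these differed between the genotypes after adjustment.

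Some lists with few or no calls in WT had more in HET, where 5% of all genes were called. Of 22 fat synthesis genes 5 rose in HET, Pnpla3, Scd2 (log2 1.42), Acly (1.27), Fasn (1.02) and Gpam (0.87), of which Fasn and Gpam lost the call without the library with little Pepd. Of 24 cholesterol synthesis genes 2 rose, Sqle (1.29) and Sc5d (0.67). Of 16 lipid droplet genes 3 fell, Plin4 (-1.41), Lipe (-1.05) and Pnpla2 (-0.52), and 1 rose, Hilpda (0.85). Of 17 clock genes 3 rose and 3 fell. Arntl (1.42), Clock (0.60) and Cry1 (0.77) were higher, and Dbp (-1.79), Tef (-0.98) and Cry2 (-0.77) lower on Alios. In WT they stood at log2 0.94 for Arntl, 0.57 for Clock, 0.57 for Cry1, -0.75 for Dbp, -0.52 for Tef and -0.58 for Cry2, without a call. Time of collection is not in the labels, and its part was not tested.

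Detoxification, stress and cytokine lists also had calls in HET that WT lacked. The cytochromes Cyp2a5 (log2 -1.52) and Cyp2a4 (-1.46) were the 2 of 18 xenobiotic cytochromes P450 called, both lower on Alios. In WT, Cyp2a5 averaged 261 CPM on Alios and 460 CPM on HFD (log2 -0.82, edgeR adjusted p = 0.255) and Cyp2a4 113 and 187 CPM (log2 -0.72, edgeR adjusted p = 0.297). The receptor Nr1i3, which senses drugs and bile pigments, fell in HET (log2 -1.18), as did Abcc3, an exporter of bile acid conjugates (-0.87). Of the 19 stress response genes 2 rose in HET, Atf4 (0.48) and Atf3 (1.67), transcription factors of the integrated stress response. Of the 8 cytokines and chemokines 2 rose, Il1b (1.71) and Ccl9 (0.73), and of the 15 liver hormones Igfbp1, Fst (1.35) and Inhba (1.53), the last encoding an activin subunit and Fst its binding protein. In WT these stood at log2 0.30 for Atf4, 1.29 for Atf3, 1.15 for Il1b, 0.28 for Ccl9, 0.57 for Fst and 0.80 for Inhba, none called. The difference between HET and WT was called for none of them. Here and among the clock genes, members were named for their HET calls, so smaller values in WT are no measure of genotype.

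**Figure D5:**
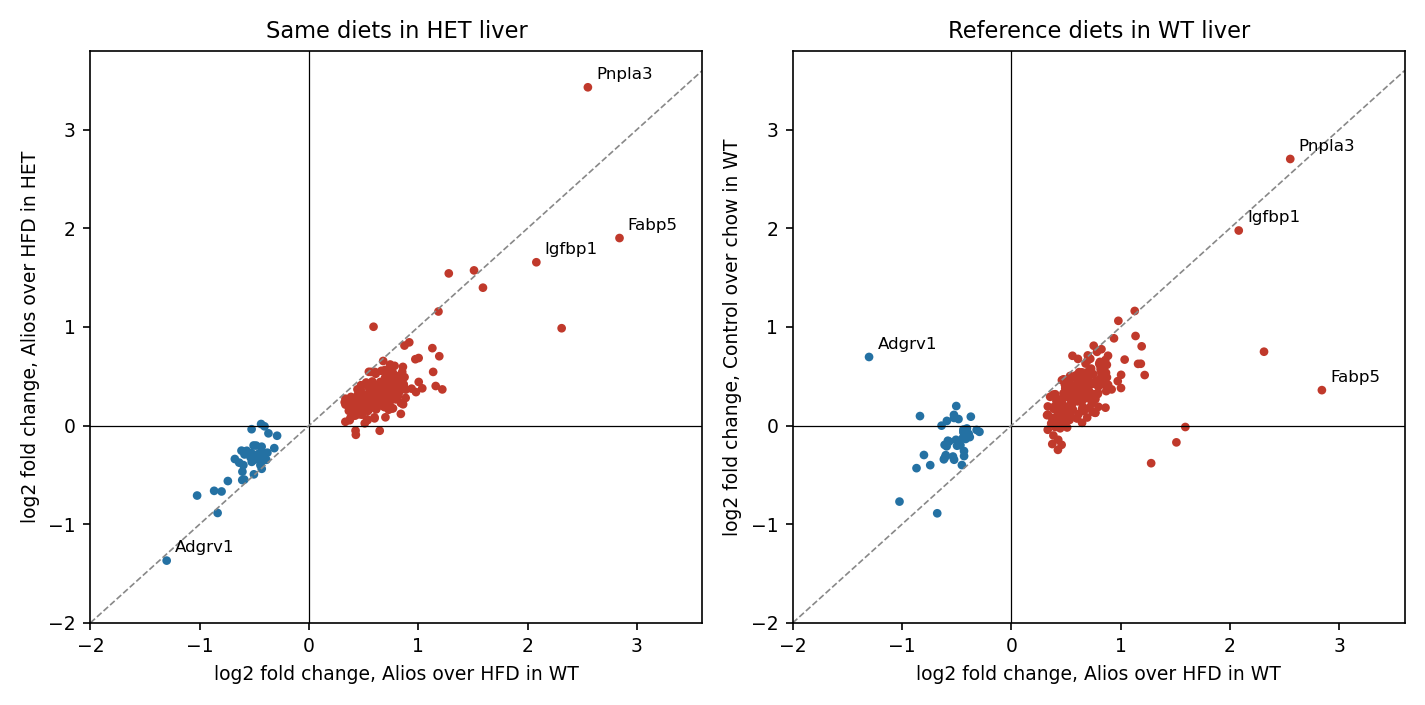
The 227 genes called in WT liver, with their log2 fold change of Alios over HFD on the x axis. The y axis is the log2 fold change of Alios over HFD in HET liver (left) and of Control over chow in WT liver (right), and the dashed line marks equal values. Nearly all genes keep their sign in HET, and Pnpla3 and Igfbp1 lie near the dashed line on the right while Fabp5 does not.

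The reference diets, Control and chow, were compared in the same fit. Control mice carry numbers inside the Alios run and chow mice numbers inside or near the HFD runs, and none of these 10 mice entered the Alios and HFD contrast. Between Control and chow 19 of 10635 genes (0.179%) were called, 5 higher (0.047%) and 14 lower (0.132%) on Control. None of the 19 was among the 227, which are 2.13% of all genes tested, and all but Snhg11 had the same sign there. Without Control mouse 2, 3, 4 or 5 the count between Control and chow was 11, 11, 11 or 10, and without chow mouse 3 or 4 it was 10 or 5. DESeq2 called 87. Of the 227 genes 206 had the same sign in Control over chow as in Alios over HFD (90.7%), beside 68.7% of all genes, with medians of 0.32 for the higher and -0.14 for the lower genes.

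Pnpla3 and Igfbp1 showed a gap of similar size between the reference diets. Pnpla3 averaged 70.0 ± 59.4 CPM on Control and 12.1 ± 14.04 CPM on chow (log2 2.70, edgeR adjusted p = 0.131), close to its levels on Alios and HFD. Igfbp1 averaged 58.1 ± 52.3 CPM on Control and 14.1 ± 5.35 CPM on chow (log2 1.98, edgeR adjusted p = 0.167), with 2 of 5 Control livers above 100 CPM. Dnajb9 averaged 66.4 ± 16.5 CPM on Control and 35.2 ± 16.2 CPM on chow (log2 0.91, edgeR adjusted p = 0.216). None of the 3 passed the test there. Some list medians had the same sign in Control over chow as in Alios over HFD. They were 0.32 for fat synthesis, 0.39 for the stress response, -0.43 for xenobiotic receptors and conjugation and -0.84 for xenobiotic cytochromes P450. Others ran the other way, at -0.17 for cholesterol synthesis, 0.39 for collagen and matrix, 0.37 for stellate cell markers and 0.62 for cell cycle genes.

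In Fabp5, the Cyp4a12 pair, Adgrv1 and Fbp1 the gap between the reference diets was small or ran the other way. Fabp5 averaged 13.5 ± 11.3 CPM on Control and 9.62 ± 8.26 CPM on chow (log2 0.36, edgeR adjusted p = 0.83). Cyp4a12a averaged 259 ± 85.1 CPM on Control and 337 ± 106 CPM on chow, so that the HFD livers, at 145 ± 48.7 CPM, were the lowest of the 4 groups. Adgrv1 averaged 6.77 ± 1.75 CPM on Control and 4.28 ± 1.57 CPM on chow, against 8.62 ± 1.91 CPM on Alios and 20.2 ± 10.6 CPM on HFD, and HFD over chow was log2 2.32 (edgeR adjusted p = 0.00413). In the contrast of Alios and Control edgeR called 0 genes (0%), with 559 at an unadjusted p under 0.05. In that of HFD and chow 101 genes (0.95%) were called, 69 higher (0.649%) and 32 lower (0.301%) on HFD. Fbp1 averaged 1211 CPM on Control and 1172 CPM on chow, so that the Alios livers, at 874 ± 35.8 CPM, were the lowest.

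Each obesogenic diet was also set against the reference diet of its own cohort. The difference of Alios less Control and HFD less chow was called in 0 of 10635 genes (0%) by edgeR, with 613 at an unadjusted p under 0.05, and in 1 by DESeq2. Without HFD mouse 2 edgeR called 1 gene. This contrast shares the Alios and HFD livers with the main one. In it Pnpla3 stood at log2 -0.15 ± 0.95 (SE), Igfbp1 at 0.10 ± 0.81 and Fabp5 at 2.48 ± 0.87. Cyp4a12a stood at 1.66 ± 0.52, Cyp4a12b at 1.68 ± 0.58, Adgrv1 at -1.997 ± 0.55 and Fbp1 at -0.64 ± 0.17. Their edgeR adjusted p ran from 0.695 to 0.999, so these values do not sort the genes.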

How the data were processed

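RNA sequencing of polyadenylated RNA was analysed from 75 liver libraries in a deposited table of raw read counts for 25759 Ensembl genes, 25723 of them with a symbol in the gene annotation used. Libraries were stranded and read from a single end, and RNA integrity was above 7, per the labels' protocols. The submitters' processing notes list STAR 2.5.1b, featureCounts 1.5 and GRCm38.p5. For the authors' counting, the strand option and the annotation release were not given in the sources used here, and near-identical or overlapping genes could share or lose reads there. Groups were taken from the labels, 1 library a mouse, and p-values measure the spread between these mice. No 2 libraries of a group agreed within sampling noise, since in 63 pairs the observed spread was at least 5.11 times that of sampling.

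Counts were tested in R 4.3.3 with edgeR 4.0.16. Genes were kept by its expression filter (minimum count 10, minimum total 15), libraries scaled by TMM, and p-values (quasi-likelihood test, two-sided) adjusted by Benjamini-Hochberg over all genes tested. Calls were made at 0.05. The 4 WT diets shared a fit, the 4 HET diets another, and the difference of genotypes used WT and HET livers on Alios and HFD. The SE is the size of the log2 fold change divided by the root of the F statistic. CPM used TMM-scaled library sizes. The test was checked on simulated counts.

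Named genes were Pepd, up to 12 called genes at each end of the log2 fold changes with a mean of at least 1 CPM, the 5 with the smallest p, and up to 3 called members of each of 34 lists, predicted genes and pseudogenes left out. The members and lists were chosen with earlier results of these data known. Transcript length and GC content came from the longest GENCODE M21 transcript. Alternatives were RLE size factors, DESeq2 1.42.0, no filter, a mean of at least 1 CPM, all 12 liver groups fitted, only the groups compared, the replicate block, an adjusted p under 0.01, HFD and chow mice numbered above or below 500 and each library left out. The offset for GC content and length, a loess of each library's deviation, and the HET values without 1 library were added after the data were seen.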

Additional observations from a re-analysis of the deposited data

Results flagged for a closer look

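Among 66 groups of Alios or HFD values examined for a library far from the rest (31 named genes and 2 measures of transcript length and GC content in each diet), 5 held one, and chance flags about 1 in 20 groups. Acpp stood at 47.5 CPM in Alios mouse 6, against 21.0 CPM in the next Alios liver. Adgrv1 stood at 4.99 CPM in Alios mouse 3, against 8.68 CPM in the next. Wdr81 stood at 46.9 CPM in Alios mouse 5, against 36.8 CPM in the next. Cyp4a12b stood at 138 CPM in HFD mouse 3, against 78.6 CPM in the next HFD liver. The level of the 25% of genes with the longest transcripts less that of the 25% with the shortest was -0.32 in Alios mouse 4, against 0.11 in the next Alios liver (log2 deviation). Over the groups that measure averaged 0.12 ± 0.23 on Alios and -0.08 ± 0.24 on HFD (SD, n = 6 and 8, two-sided exact permutation p = 0.146), and 0.11 ± 0.06 on Control and -0.13 ± 0.26 on chow (n = 5 each, two-sided exact permutation p = 0.0238). The causes were not tested.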

How the results depend on the processing

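For Alios against HFD in WT liver (227 genes), RLE size factors (238), no filter (153), a mean of at least 1 CPM (218) and a fit of only these groups (152) gave counts within 1.5 times. DESeq2 gave 407, all 12 liver groups 886, an adjusted p under 0.01 gave 3, the GC and length offset 1, HFD mice numbered below 500 gave 94 and those above 500 gave 14. Of the called genes 82.8% were higher on Alios, 71.5% by DESeq2, 63.7% with all 12 groups and 57.1% against HFD mice above 500. Leaving out 1 library gave 73 to 5.0e+02 genes. For Control against chow (19 genes), DESeq2 gave 87, all 12 groups 208, an adjusted p under 0.01 gave 5 and the offset 33, and leaving out 1 library gave 5 to 25. In HET liver (302 higher and 255 lower), all 12 groups gave 218, an adjusted p under 0.01 gave 103 and the offset 311, and leaving out 1 library gave 219 to 653. The difference from the reference diets (0 genes) was 1 by DESeq2 and 0 to 1 with 1 library left out, and the difference of genotypes (0 genes) was 0 by DESeq2 and 0 to 1 with 1 library left out. Between the HFD runs of mouse numbers it was 0 throughout. Apart from the offset, which takes out differences that follow GC content and length, and the settings with fewer mice, the cause was not tested.

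Replicate numbers did not pair the mice: deviations of same-numbered libraries correlated at -0.43 to 0.39 over the 6 Alios and HFD pairs. With the number as a replicate block 125 genes were called in WT, 507 in HET and 34 between Control and chow, and 0 for both differences of differences. None of the 31 named genes kept its WT call under every setting at an adjusted p under 0.05, and none changed sign under any. In HET, Pnpla3, Acpp, Car14 and Mgmt of 16 kept theirs. Genes at a few CPM, such as Lnpk and Dzip3, rest on few counts at these depths.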

Other observations

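None of the 19 genes called between the reference diets in WT liver was called between Alios and HFD, where 2.13% of all genes tested were. This does not show the 2 comparisons to be separate. All of the 19 but Snhg11 had the same sign in both. Several fell just over the cut-off between Alios and HFD, from Gsta4 (edgeR adjusted p = 0.0538) and Elovl2 (0.0707) to Plekhb1 (0.095). The genes given here were chosen after their values were seen. Among the 14 genes lower on Control than on chow were the carboxylesterases Ces2a and Ces2c. Ces2c averaged 30.7 ± 13.9 CPM on Control and 86.8 ± 23.6 CPM on chow (log2 -1.47, SD, n = 5 each). Ces2a had a log2 fold change of -1.63, the aldehyde oxidase Aox1 averaged 153 and 298 CPM (log2 -0.96), and the glutathione transferase Gsta4 38.8 and 92.9 CPM (log2 -1.24). On the obesogenic diets Ces2c averaged 31.2 CPM on Alios and 35.8 CPM on HFD, both below chow, and Gsta4 39.2 CPM on Alios and 70.2 CPM on HFD (log2 -0.84, edgeR adjusted p = 0.0538).

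Among the 5 genes higher on Control were Elovl2, which elongates polyunsaturated fatty acids, and Lepr, the leptin receptor. Elovl2 averaged 911 ± 51.3 CPM on Control and 449.9 ± 98.0 CPM on chow (log2 1.02), beside 1096 CPM on Alios and 758 CPM on HFD. Lepr averaged 8.63 ± 4.48 CPM on Control and 1.68 ± 0.90 CPM on chow (log2 2.33). Chow and Control also differ in the runs of mouse numbers that ate them, and diet and cohort cannot be told apart here either.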
